A study of Mus musculus with 16 samples.

Results

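The 7 genes described here carry or steer the response of a cell to hyperosmotic medium: the osmolyte transporters Slc6a12, Slc5a3, Slc38a2 and Slc6a6, the osmolyte-making enzyme Akr1b3, the kinase Sgk1 and the transcription factor Nfat5. They were chosen by gene symbol, with earlier results of these data known, from the 15871 entries of the count table. All 7 were in it, and all 7 passed the filter on low counts that left 13527 entries for testing. RNA was sequenced from peritoneal macrophages of wild-type C57BL/6 mice aged 8 weeks. The cells were drawn into the peritoneal cavity by an injection of 6% soluble starch and then cultured for 48 h. The 16 libraries fell into 4 groups of 4. H_O cells had 33 mmol/L glucose and oxidised low-density lipoprotein (ox-LDL), the modified lipoprotein that turns macrophages into foam cells, and H_C cells had 33 mmol/L glucose alone. L_O cells had low glucose with ox-LDL, and L_C cells had low glucose with 27.5 mM mannitol, a sugar alcohol that serves as an osmotic control. Mannitol is named for L_C and not for L_O, the low glucose concentration and the osmolality of the media are not given in the sources used here, and ox-LDL is labelled at 50 mg/ml, a unit that is in doubt. All cells were in DMEM with serum. No label ties a replicate to its own animal or culture, so each p-value reflects the spread among libraries, which may be technical.

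Cells in hyperosmotic medium lose water and recover their volume by gathering small organic solutes, the compatible osmolytes, which do not disturb proteins. NFAT5, also called TonEBP, is the transcription factor that drives the genes for osmolyte uptake and synthesis in kidney medulla and in other tissues, macrophages among them. It binds a short DNA element, the tonicity-responsive enhancer, whose core reads TGGAAA. Slc6a12 encodes the betaine transporter, Slc5a3 the sodium-coupled myo-inositol transporter, Slc6a6 the taurine transporter and Slc38a2 the neutral amino acid transporter SNAT2. Akr1b3 encodes aldose reductase, which turns glucose into the osmolyte sorbitol, and Sgk1 encodes a kinase of ion and solute transport that is also induced by glucocorticoids.

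The stretches before the annotated starts of the 3 genes that had the largest folds for high glucose are printed to show where the NFAT5 core lies and where it is not found. They are the 250 bases before a RefSeq transcription start (GRCm38.p6, the assembly of mm10), written 5′ to 3′ on the gene's strand in lower case, and capitals mark a match to the full tonicity-responsive enhancer.
Slc6a12: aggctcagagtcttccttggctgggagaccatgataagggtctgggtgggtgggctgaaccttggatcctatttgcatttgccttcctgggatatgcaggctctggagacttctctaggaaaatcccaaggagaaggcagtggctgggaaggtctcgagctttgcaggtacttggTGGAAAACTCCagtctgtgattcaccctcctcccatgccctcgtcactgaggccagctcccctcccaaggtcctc
Slc5a3: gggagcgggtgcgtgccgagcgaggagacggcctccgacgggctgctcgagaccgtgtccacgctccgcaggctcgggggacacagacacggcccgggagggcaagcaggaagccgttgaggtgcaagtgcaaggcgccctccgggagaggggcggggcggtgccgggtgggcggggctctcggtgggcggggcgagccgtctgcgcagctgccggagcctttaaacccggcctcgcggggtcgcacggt
Slc38a2: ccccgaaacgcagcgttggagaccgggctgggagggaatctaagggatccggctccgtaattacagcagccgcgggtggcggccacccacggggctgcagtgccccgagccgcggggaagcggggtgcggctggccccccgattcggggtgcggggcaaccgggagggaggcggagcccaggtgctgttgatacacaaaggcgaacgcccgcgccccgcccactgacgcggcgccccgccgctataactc
The Slc6a12 stretch, chr6:121342324-121342573 on the plus strand, belongs to the farthest upstream of the RefSeq starts of the gene, and its match begins at position -75 from that start. That start lies before the GENCODE start of the gene, at 121343076. The windows at the other RefSeq starts of Slc6a12 held no match to the core or to the full consensus. The Slc5a3 stretch is chr16:92058072-92058321 on the plus strand, the Slc38a2 stretch is chr15:96699729-96699978 on the minus strand, and neither window holds TGGAAA on either strand. Windows of 300 bases (250 before and 50 after a start) were at hand for 5 of the 7 genes, with 14 windows in all. The core TGGAAA was in windows of 2 of these 5 genes, Slc6a12 and Sgk1, and over all annotated genes 23.9% had it in a window. The full enhancer consensus was found for Slc6a12 alone among the 5, against 5.74% of all genes. Slc6a12 and Sgk1 had more windows than the other genes here and so more places for a match, which makes these shares per gene unlike. Over all windows, 21.4% held the core and 4.96% held the full consensus. Of the 14 windows here, the core was in the printed Slc6a12 window and in the Sgk1 windows that begin at 21881934 and 21993640 on chromosome 10. No other of the 14 held it, and the full consensus was in the printed Slc6a12 window alone. With so few windows, no excess over the shares of all windows is read. GC content of the printed stretches was 55.6% for Slc6a12, 74.8% for Slc5a3 and 72% for Slc38a2, and the median over all windows was 52.4%. A match describes letters in these windows and is not a measured site, and the counts do not tell which start of Slc6a12 was used.

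The genes lie on 5 mouse chromosomes (mm10, GENCODE M21 annotation), and all are protein coding. Slc6a12 spans 121343076 to 121365775 and Slc6a6 spans 91684053 to 91759066, both on the plus strand of chromosome 6, and Akr1b3 spans 34302434 to 34317478 on its minus strand. Slc5a3 spans 92058322 to 92087473 on chromosome 16, Slc38a2 spans 96687392 to 96699730 on chromosome 15, Sgk1 spans 21882184 to 21999903 on chromosome 10, and Nfat5 spans 107293470 to 107379517 on chromosome 8. Slc5a3 shares 159 exonic bases with Mrps6, a mitochondrial ribosomal protein gene on the same strand, and with the annotated gene Gm49711, so reads from those bases could be counted for either. Slc6a6 shares 117 exonic bases with Gm44981 on the opposite strand, and whether the counting used strand is not given in the sources used here. Akr1b3 shares 13.6% of its 50-base stretches with transcripts of other genes, and its counts are uncertain to that extent. For the other members the share was at most 1.01%.

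Library totals lay between 32596640 and 41712885 counts. L_C replicate 4 stood apart from the rest, with 3.71% of its counts from mitochondrial genes against 1.48 to 2.30% in the other 15 libraries. Its counts also differed widely from those of its own group over the tested entries. Chi-square per degree of freedom was 100 to 104 between it and each other L_C library. It was 6.59 to 19.5 for every other pair of libraries within a group. This library serves in H_C against L_C, in L_O against L_C and in the spread used by every test over all 16 libraries. All 6 macrophage markers were in the table, and their summed level was 17060 to 20561 CPM over the 16 libraries, where CPM is a count divided by the TMM-scaled total of its library, times 1000000. Summed levels over the 5 B cell markers were at most 2.36 CPM, over the 4 T and NK cell markers in the table at most 3.04 CPM, over the 3 neutrophil markers at most 5.23 CPM, over the 2 mast cell markers at most 0.493 CPM and over the 4 dendritic cell markers at most 3.32 CPM. Summed levels over the 8 mesothelial and fibroblast markers were 32.7 to 99.3 CPM in H_O, 36.1 to 196.7 CPM in H_C with the highest in replicate 3, 21.5 to 35.2 CPM in L_O and 54.2 to 76.5 CPM in L_C. Retnlg, a neutrophil marker, was at 0 in all H_O libraries and Pax5, a B cell marker, in all L_O libraries. The part of these cells in the levels given here was not tested. In bulk RNA, fewer cells of a type and less RNA per cell cannot be told apart.

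The transporters differed in abundance by orders of magnitude. Levels between genes are compared as CPM per kilobase of annotated exon, merged over all annotated transcripts of a gene. That length can exceed the length of the transcript in use, which the counts do not tell. For Akr1b3 it is 8384 bases in 7 blocks. The order between genes depends on these lengths. Over all 16 libraries Slc6a6 averaged 209 CPM per kilobase, Sgk1 102, Slc38a2 23.9, Akr1b3 10.6, Nfat5 5.39, Slc6a12 2.51 and Slc5a3 1.21 CPM per kilobase. The order of the last pair differed between groups: Slc6a12 was above Slc5a3 in H_O (5.46 and 2.03 CPM per kilobase) and H_C (3.79 and 1.42), and below it in L_O (0.449 and 0.855) and L_C (0.339 and 0.535). In mean CPM, Slc6a6 ranked 37 of the 13527 tested entries and Slc6a12 ranked 8804, so the taurine transporter was among the most abundant entries and the betaine transporter below the middle.

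**Figure D1:**
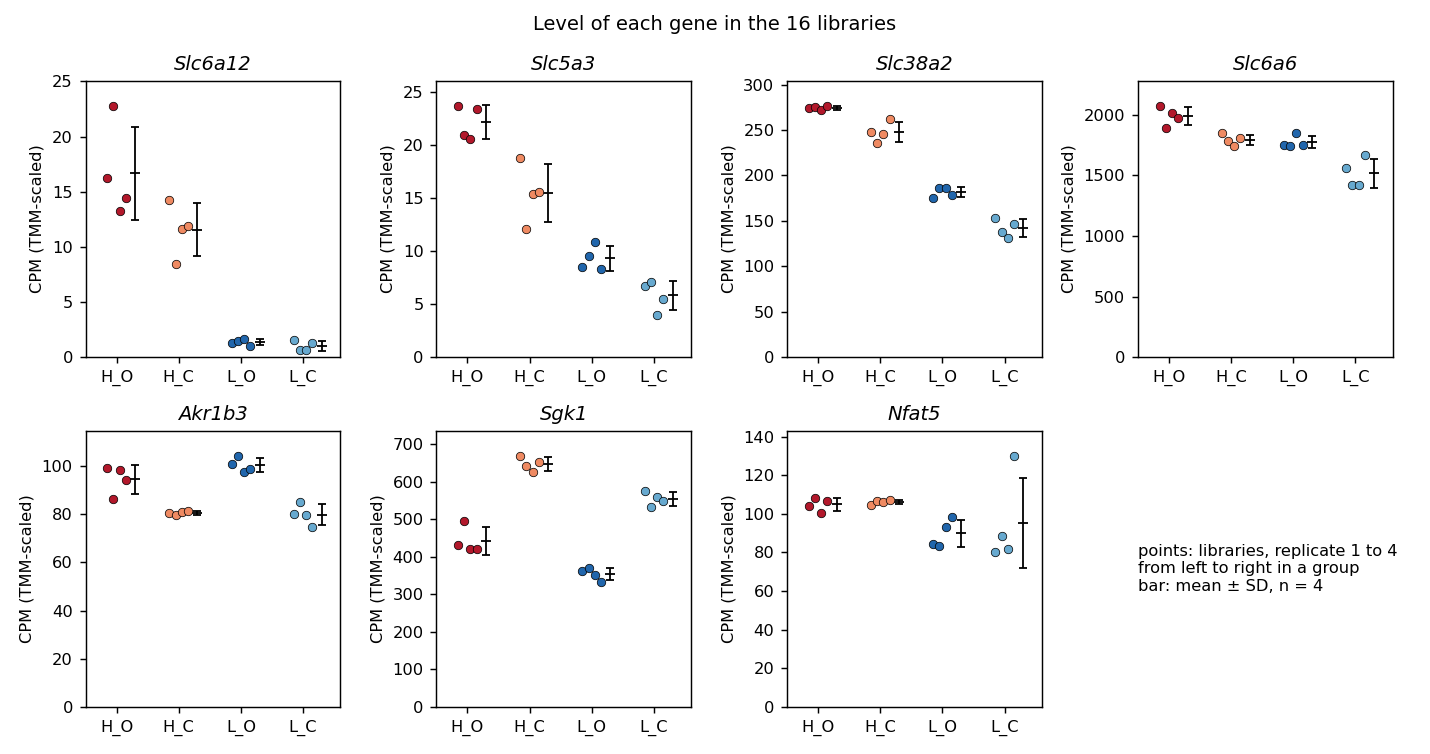
Level of each of the 7 genes in the 16 libraries, in CPM scaled by TMM, on linear axes from 0. Each point is a library, with replicates 1 to 4 from left to right, and the bar beside each group is the mean ± SD (n = 4). The high glucose groups stand above the low glucose groups for Slc6a12, Slc5a3 and Slc38a2, the ox-LDL groups stand below their controls for Sgk1, and L_C replicate 4 is the highest point for Nfat5.

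All 4 transporters and Sgk1 rose in high glucose, with and without ox-LDL. The rise of Slc6a6 in H_O against L_O was marginal, at an edgeR adjusted p of 0.0494, and did not pass under 14 of 24 alternatives. In H_C against L_C, 5 of the 7 genes rose, where 5.02% of all tested entries rose, and in H_O against L_O the same 5 genes rose, where 2.71% of all tested entries rose (edgeR quasi-likelihood test, two-sided, Benjamini-Hochberg adjusted p under 0.05 over all 13527 entries). Akr1b3 and Nfat5 did not pass in either comparison. In H_C against L_C all libraries of these 5 genes lay above those of L_C, as did 7.58% of all tested entries, and 9.82% lay below without overlap. In H_O against L_O 6 of the 7 genes lay above without overlap, Nfat5 being the added one, against 8.18% of all tested entries above and 9.52% below. The median log2 fold change of the 7 genes was 0.241 in H_C against L_C and 0.316 in H_O against L_O, and the medians over all tested entries were -0.00454 and 0.00304. By the labels the first comparison sets glucose against mannitol, but whether the mannitol matched the osmolality of the media is not given. In the second no osmotic control is named, so glucose and osmolality cannot be told apart there. The 7 genes were chosen with earlier results of these data known, so their counts beside the shares of all tested entries are descriptions.

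Slc6a12, the betaine transporter, changed most. It had 16.3, 22.8, 13.2 and 14.4 CPM in the H_O libraries and 14.2, 8.44, 11.6 and 11.9 CPM in the H_C libraries. In low glucose it had 1.30, 1.44, 1.68 and 1.06 CPM in the L_O libraries and 1.56, 0.691, 0.621 and 1.26 CPM in the L_C libraries. Every high glucose library stood above every low glucose library, by a margin of several times, although the low glucose values rest on only 21 to 58 reads a library. The rise in H_C against L_C was 11.2-fold, with a 95% interval of 7.51 to 16.6 and an edgeR adjusted p of 4.51e-07. It was the third largest rise among the 679 entries that rose there. In H_O against L_O the rise was 12.1-fold (8.24 to 17.9, edgeR adjusted p = 1.9e-07), the eighth largest of 367. The intervals of both folds overlapped, and the difference between them was 0.12 ± 0.36 on the log2 scale (SE, edgeR adjusted p = 0.947), with a ratio of folds between 0.631 and 1.88 (95% interval).

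Slc5a3, the myo-inositol transporter, followed the same order at smaller size. It had 23.7, 21.0, 20.6 and 23.5 CPM in H_O and 18.8, 12.1, 15.4 and 15.6 CPM in H_C. It had 8.56, 9.59, 10.8 and 8.33 CPM in L_O and 6.74, 7.08, 4.02 and 5.51 CPM in L_C. The 4 groups did not overlap in any pair, so the order was H_O, H_C, L_O and L_C from high to low, and all neighbours in that order differed (edgeR adjusted p between 0.00134 and 0.0168). Slc5a3 rose 2.65-fold in H_C against L_C (2.09 to 3.36, edgeR adjusted p = 1.57e-05) and 2.38-fold in H_O against L_O (1.89 to 2.99, edgeR adjusted p = 7.74e-05). Mrps6, which shares exonic bases with it, averaged 7.50 ± 0.969 CPM in H_O, 5.86 ± 0.932 in H_C, 7.18 ± 0.597 in L_O and 5.25 ± 1.27 in L_C (SD, n = 4), with log2 fold changes for glucose of 0.16 ± 0.17 in H_C against L_C and 0.06 ± 0.16 in H_O against L_O, neither past the threshold.

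Slc38a2, which carries glutamine, alanine and other neutral amino acids, had the smallest p of all tested entries for high glucose in cells without ox-LDL. The H_O libraries held 274, 275, 272 and 276 CPM, and the H_C libraries held 248, 236, 246 and 262 CPM. The L_O libraries held 175, 186, 186 and 179 CPM, and the L_C libraries held 153, 138, 131 and 147 CPM. The 4 groups were again separate in the order H_O, H_C, L_O and L_C. The rise was 1.75-fold in H_C against L_C (1.62 to 1.88, edgeR adjusted p = 4.08e-08, rank 1 of 13527 by p) and 1.51-fold in H_O against L_O (1.41 to 1.62, edgeR adjusted p = 8.13e-07). The difference between these effects was -0.21 ± 0.07 on the log2 scale, with an unadjusted p of 0.00638 and an edgeR adjusted p of 0.343, and so did not pass.

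Slc6a6, the taurine transporter, had the smallest folds among the transporters. It had 2070.2, 1892.5, 2012 and 1974 CPM in H_O and 1845, 1783, 1743 and 1804 CPM in H_C. It had 1748, 1739.7, 1846 and 1754 CPM in L_O and 1557, 1422, 1422 and 1671 CPM in L_C. H_O stood above all other groups and L_C below them, while H_C and L_O overlapped and did not differ past the threshold (1.01-fold, 95% interval 0.942 to 1.09, edgeR adjusted p = 0.83). The rise was 1.18-fold in H_C against L_C (1.1 to 1.27, edgeR adjusted p = 0.00275). In H_O against L_O it was 1.12-fold with an edgeR adjusted p of 0.0494, which lay between 0.054 and 0.14 under 14 of 24 alternative settings, among them leaving out any 1 of the H_O and L_O libraries other than H_O replicate 2.

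**Figure D2:**
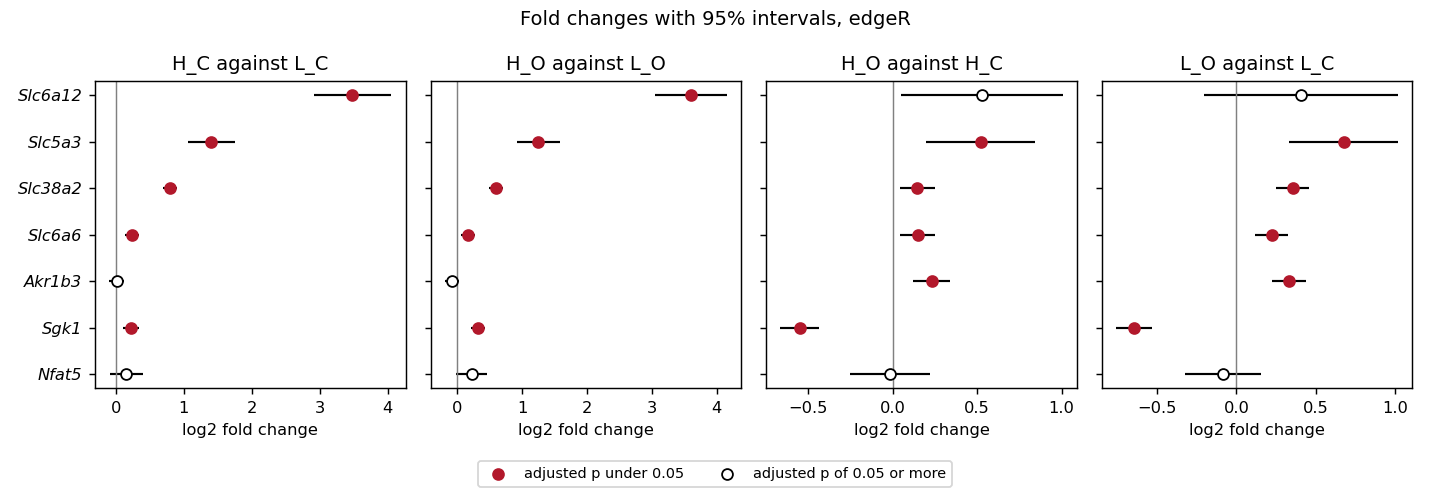
Log2 fold change of each gene in the 4 pairwise comparisons (x axes, which differ in range), with 95% intervals from the edgeR standard error. Filled points passed an adjusted p of 0.05. For glucose the folds run from 11.2 for Slc6a12 to 1.01 for Akr1b3, which did not pass, in H_C against L_C. For ox-LDL Sgk1 is the only gene of the 7 that passed to the left of 0.

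Akr1b3, the aldose reductase gene, rose with ox-LDL and did not pass for glucose. It had 99.1, 86.3, 98.2 and 94.2 CPM in H_O and 80.4, 79.5, 80.8 and 81.5 CPM in H_C. It had 101, 104, 97.6 and 98.8 CPM in L_O and 80.1, 84.9, 79.7 and 74.6 CPM in L_C. The glucose comparisons gave 1.01-fold in H_C against L_C (0.936 to 1.09, edgeR adjusted p = 0.904) and 0.941-fold in H_O against L_O (0.873 to 1.01, edgeR adjusted p = 0.355), and both pairs of groups overlapped. The ox-LDL groups stood above their controls with no overlap, by 1.17-fold in H_O against H_C (edgeR adjusted p = 0.0023) and 1.26-fold in L_O against L_C (edgeR adjusted p = 6.15e-05).

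Sgk1 rose with high glucose and fell with ox-LDL. It had 431, 496, 419.8 and 421 CPM in H_O and 669, 642, 625 and 653 CPM in H_C. It had 363, 371, 351 and 334 CPM in L_O and 576, 533, 558 and 549.6 CPM in L_C. The 4 groups were separate in the order H_C, L_C, H_O and L_O, with the groups without ox-LDL on top, and neighbours in that order differed (edgeR adjusted p at most 0.00785). The glucose rise was 1.17-fold in H_C against L_C (1.08 to 1.26, edgeR adjusted p = 0.00785) and 1.25-fold in H_O against L_O (1.15 to 1.35, edgeR adjusted p = 0.00108). The fall with ox-LDL was to 0.683-fold in H_O against H_C (edgeR adjusted p = 2.77e-07) and to 0.640-fold in L_O against L_C (edgeR adjusted p = 3.93e-08).

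Nfat5 itself encodes the factor that drives this response, and the activity of that factor is also regulated at the protein level. The gene did not pass for glucose in the fit of all 16 libraries. It passed under 1 of 24 alternatives in H_C against L_C and under 2 of 24 in H_O against L_O. It had 104, 108, 100.5 and 107 CPM in H_O and 105, 107, 106 and 107 CPM in H_C. It had 84.6, 83.5, 93.3 and 98.2 CPM in L_O and 80.4, 88.8, 81.7 and 130.1 CPM in L_C, the last from replicate 4. H_O stood above L_O with no overlap, at 1.17-fold (0.989 to 1.38, edgeR adjusted p = 0.273), and H_C against L_C gave 1.11-fold (0.944 to 1.31, edgeR adjusted p = 0.397), so neither passed. Errors of log2 fold changes are SE throughout. The groups stood in the order H_C, H_O, L_C and L_O by mean, and no neighbours in it differed past the threshold. Without L_C replicate 4 both passed, with log2 fold changes of 0.34 ± 0.05 in H_C against L_C (edgeR adjusted p = 0.000144) and 0.22 ± 0.05 in H_O against L_O (edgeR adjusted p = 0.00401). H_O against L_O holds no L_C library, so its fold stayed at 0.22 and its SE changed, and it also passed in the edgeR fit of only its own 8 libraries (adjusted p = 0.0129). No other member changed its call for glucose when that library was left out, and Slc6a12, Slc5a3 and Slc38a2 had log2 fold changes of 3.6, 1.38 and 0.82 in H_C against L_C without it.

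With ox-LDL, 3 of the 4 transporters and Akr1b3 rose and Sgk1 fell, in high and in low glucose. In H_O against H_C, 4 of the 7 rose, where 10.4% of all tested entries rose, and 1 fell, where 11.5% fell. In L_O against L_C, 4 rose, where 12% of all tested entries rose, and 1 fell, where 13.8% fell. The genes that rose were Slc5a3, Slc38a2, Slc6a6 and Akr1b3 in both comparisons, and the gene that fell was Sgk1. Their libraries did not overlap either, where 14.8% of all tested entries lay above and 14.8% below in H_O against H_C, and 12.2% above and 13.9% below in L_O against L_C. Slc5a3 was 1.43-fold higher in H_O against H_C (edgeR adjusted p = 0.0168) and 1.60-fold higher in L_O against L_C (edgeR adjusted p = 0.00342). Slc38a2 was 1.11-fold higher in H_O against H_C (edgeR adjusted p = 0.0335) and 1.28-fold higher in L_O against L_C (edgeR adjusted p = 1.82e-05). Slc6a6 was 1.11-fold higher in H_O against H_C (edgeR adjusted p = 0.0341) and 1.17-fold higher in L_O against L_C (edgeR adjusted p = 0.00189). Slc6a12 did not pass in H_O against H_C, at 1.44-fold (1.03 to 2.01, edgeR adjusted p = 0.101), or in L_O against L_C, at 1.33-fold (0.866 to 2.03, edgeR adjusted p = 0.323), and its libraries overlapped in both. It did pass in H_O against H_C in limma-voom (adjusted p = 0.0239) and in the edgeR fit of only those 8 libraries (adjusted p = 0.038). The calls in H_O against H_C were the least firm, since leaving out each of the 16 libraries in turn left between 1 and 4 of the 4 rises. Without H_C replicate 2 only Akr1b3 kept its call, and 2 rises were left without H_C replicate 3 or without H_O replicate 1, 3 or 4. The mannitol named for L_C and not for L_O cannot be told apart from ox-LDL in L_O against L_C.

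None of the 7 genes had an ox-LDL effect that differed between high and low glucose past the threshold in edgeR, in DESeq2 or in limma-voom, and over all tested entries edgeR called 0.00739% higher and 0.00739% lower, 1 entry each. At an unadjusted p under 0.05 there was 1 such member, Slc38a2. The test of this difference is the same contrast as the difference between the 2 glucose effects, of which H_C against L_C alone has mannitol named for its low glucose group. Its 95% intervals as a ratio of folds were 0.648 to 1.24 for Slc5a3, 0.857 to 1.05 for Slc6a6, 0.838 to 1.04 for Akr1b3, 0.954 to 1.19 for Sgk1 and 0.83 to 1.32 for Nfat5. For Slc38a2 the interval was 0.782 to 0.958, which lies below 1. Across both factors, H_O against L_C called 5 of the 7 genes higher and 1 lower, where 14.5% of all tested entries were higher and 16.1% lower, and H_C against L_O called 4 higher and 1 lower, where 13.9% were higher and 14.4% lower.

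Within the groups, pairs of members deviated together to different degrees. After the group means were taken off, Pearson r of log2 CPM over the 16 libraries lay between -0.575 and 0.792 for the 21 pairs of members. The highest was that of Slc6a12 and Slc38a2, Slc5a3 and Slc38a2 had 0.621, and Slc6a12 and Slc5a3 had 0.539. Slc6a6 had 0.523 with Slc6a12, 0.566 with Slc38a2 and 0.294 with Slc5a3. Slc6a12 had 0.597 with Sgk1, which is no transporter, and Sgk1 and Akr1b3 had -0.447. These libraries share their groups, depths and handling, so the r values are descriptions.

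**Figure D3:**
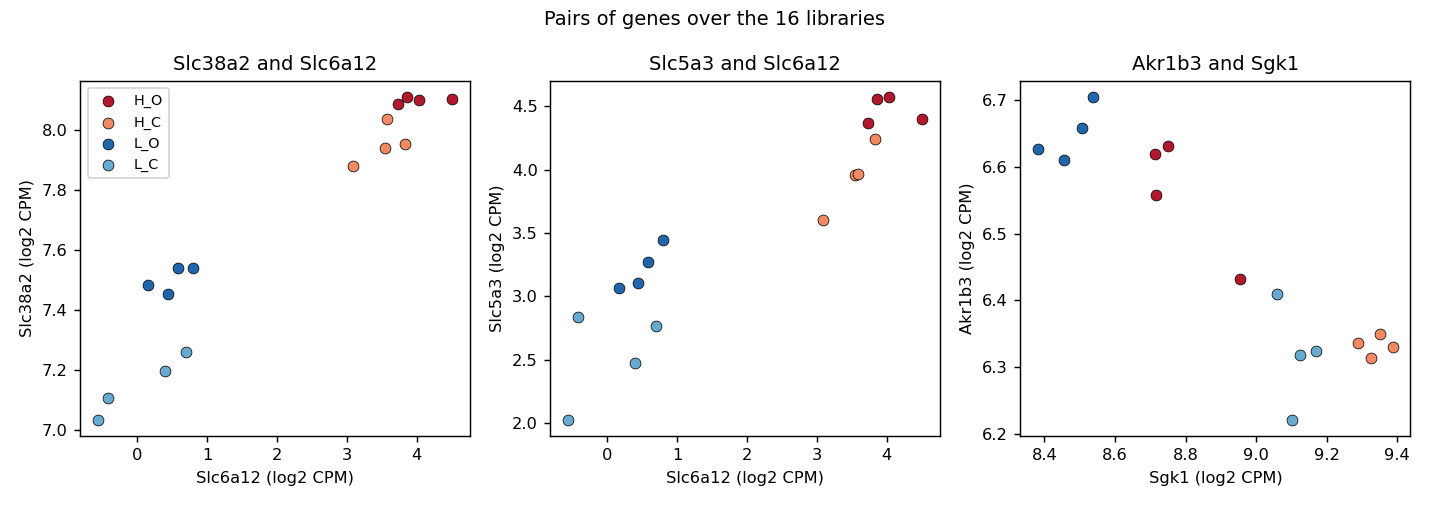
Levels of 3 pairs of genes in log2 CPM (both axes), 1 point a library, coloured by group. On the left and in the middle, the high glucose libraries lie at the upper right with Slc6a12 between 3.09 and 4.51 log2 CPM and the low glucose libraries at the lower left. On the right, the ox-LDL libraries lie at low Sgk1 and high Akr1b3.

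The genes most like each member over the 16 libraries were sought among 8364 named genes with a mean log2 CPM of at least 3, the 7 members left out. Between members, Slc38a2 and Slc5a3 had a Pearson r of 0.968, Slc38a2 and Slc6a12 0.962, and Slc5a3 and Slc6a12 0.929. Ccdc93, part of a complex of endosomal recycling, was the most like of these to both Slc5a3 (Pearson r = 0.974) and Slc38a2 (r = 0.975), with 85.0 ± 2.54 CPM in H_O, 80.8 ± 2.10 in H_C, 72.2 ± 1.17 in L_O and 64.9 ± 2.62 in L_C (SD, n = 4). Slc7a6, an exchanger of cationic and neutral amino acids, was also among the 3 most alike non-members of both (r = 0.951 and 0.962), with 22.9 ± 0.936 CPM in H_O, 19.1 ± 0.838 in H_C, 14.3 ± 1.02 in L_O and 12.2 ± 1.11 in L_C. Outside the members, Slc6a12 was most like Ncf1, a subunit of the phagocyte NADPH oxidase (r = 0.955), which averaged 390.5 ± 25.1 CPM in H_O, 384 ± 13.1 in H_C, 303 ± 13.2 in L_O and 308 ± 5.97 in L_C. Slc6a6 was most like Mfsd6 (r = 0.960), Sgk1 was most like Htra1, a secreted serine protease gene (r = 0.987), Akr1b3 was most like Psmc5, a proteasome subunit gene (r = 0.967), and Nfat5 was most like Zfp628 (r = 0.924, and 0.898 without L_C replicate 4). These libraries share groups, depth and handling, and the r values take in the steps between the 4 groups.

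Of 21 tested genes for osmolyte supply, 2 rose and 3 fell in H_C against L_C, where 5.02% of all tested entries rose and 7.75% fell. The list median there was 0.05 on the log2 scale, beside -0.00454 over all tested entries. The risers were Cdo1 (0.89 ± 0.15), which starts taurine synthesis from cysteine, and Pnpla6 (0.45 ± 0.08), a phospholipase that yields glycerophosphocholine, both named here after their values were seen. Among the 3 that fell were Slc7a8 (-0.42 ± 0.10, edgeR adjusted p = 0.00947) and Akr1b8 (-0.24 ± 0.08, edgeR adjusted p = 0.0486). In H_O against L_O edgeR called 0 of the 21, 5 had an unadjusted p under 0.05, DESeq2 called 1 higher and 1 lower and limma-voom called 0. Sord, which turns sorbitol into fructose, averaged 71.5 ± 2.54 CPM in H_O, 81.1 ± 2.89 in H_C, 67.5 ± 2.42 in L_O and 82.9 ± 5.59 in L_C (SD, n = 4), so it fell with ox-LDL in both media and passed for glucose in neither comparison. Akr1b8, a relative of aldose reductase, had 35.0 ± 3.6 CPM in H_O, 17.2 ± 1.33 in H_C, 37.4 ± 1.67 in L_O and 20.3 ± 0.466 in L_C, and rose with ox-LDL by a log2 fold change of 1.03 ± 0.08 in H_O against H_C and 0.88 ± 0.07 in L_O against L_C.

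Of 10 chaperone genes linked to osmotic stress, 1 rose and 2 fell in H_C against L_C, beside the same shares of 5.02% and 7.75%. The 2 that fell were Hspa4 (-0.16 ± 0.04) and Hspa8 (-0.20 ± 0.04). In H_O against L_O edgeR called 0 of them, 2 had an unadjusted p under 0.05, DESeq2 called 1 lower and limma-voom called 0. Hspa4l, an osmotic stress protein of the Hsp110 family, had log2 fold changes of -0.02 ± 0.06 in H_C against L_C and -0.10 ± 0.06 in H_O against L_O, neither past the threshold. Of 22 genes for ion and water transport in volume control, 2 rose and 3 fell in H_C against L_C (5.02% and 7.75% of all tested entries), and 1 rose in H_O against L_O (2.71%). The gene that rose in both was Atp1b3, a beta subunit of the sodium pump, with 423 ± 19.99 CPM in H_O, 401 ± 6.58 in H_C, 305 ± 10.3 in L_O and 313 ± 11.8 in L_C (SD, n = 4). Its edgeR adjusted p was 2.67e-06 in H_O against L_O and 2.66e-05 in H_C against L_C. Slc12a7, a potassium chloride cotransporter, and Trpv4, a calcium channel that responds to cell swelling, rose with ox-LDL in both media. Slc12a7 was also among the 3 that fell in H_C against L_C (-0.24 ± 0.05, edgeR adjusted p = 0.00699). Trpv4 averaged 12.5 ± 0.0533 CPM in H_O, 7.39 ± 0.302 in H_C, 12.6 ± 1.59 in L_O and 6.67 ± 1.11 in L_C.

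Of 8 tested genes reported as NFAT5 targets in macrophages, 1 rose and 2 fell in H_C against L_C, where 5.02% of all tested entries rose and 7.75% fell, and 1 rose in H_O against L_O, where 2.71% rose. The list medians were -0.81 and 0.33 on the log2 scale, beside -0.00454 and 0.00304 over all tested entries. S100a4, a calcium-binding protein gene, rose in all 4 pairwise comparisons and averaged 73.5 ± 8.45 CPM in H_O, 35.9 ± 4.89 in H_C, 29.2 ± 3.47 in L_O and 13.5 ± 6.10 in L_C (SD, n = 4). Its edgeR adjusted p was 0.00107 in H_C against L_C and 0.00239 in H_O against L_O. Tnf, the inflammatory cytokine gene, and Ciita, the master regulator of MHC class II genes, fell in H_C against L_C, with log2 fold changes of -0.95 ± 0.14 and -1.18 ± 0.23, and neither passed in H_O against L_O. Of 13 genes that act on NFAT5, 1 rose and 1 fell in each glucose comparison, beside 5.02% and 7.75% of all tested entries in H_C against L_C and 2.71% and 3.39% in H_O against L_O. Mapk14, the p38 kinase gene, had log2 fold changes of 0.10 ± 0.04 in H_C against L_C and 0.02 ± 0.04 in H_O against L_O, neither past the threshold.

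Among 11 close relatives of the members, 2 rose and 1 fell in H_C against L_C (5.02% and 7.75% of all tested entries), and 1 fell in H_O against L_O (3.39%). Nfatc2, a calcineurin-dependent NFAT gene, was the one that fell in both, with 23.7 ± 2.21 CPM in H_O, 18.4 ± 1.30 in H_C, 30.8 ± 1.87 in L_O and 24.7 ± 2.46 in L_C (SD, n = 4). Slc6a13, a GABA transporter gene and one of the 2 risers, was named after its values were seen. It lay near the floor, between 0.164 and 0.499 CPM in H_O, 0.0512 and 0.406 in H_C, 0.116 and 0.381 in L_O and 0 and 0.0553 in L_C. Of 11 partners of SGK1, edgeR called 0 in H_C against L_C, where 2 had an unadjusted p under 0.05 and DESeq2 and limma-voom each called 1 higher. In H_O against L_O edgeR and limma-voom called 0, 3 had an unadjusted p under 0.05 and DESeq2 called 1 lower. Ndrg1, whose protein SGK1 phosphorylates, fell with ox-LDL and averaged 25.02 ± 2.90 CPM in H_O, 42.7 ± 3.25 in H_C, 23.0 ± 3.20 in L_O and 38.6 ± 4.51 in L_C.

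Slc38a2 and Sgk1 also answer to other pathways, and lists for those were read beside them. Slc38a2 is a target of ATF4, the factor of the amino acid response. Of 12 other ATF4 targets, 7 fell and 1 rose in H_C against L_C, where 7.75% of all tested entries fell, and 6 fell and 1 rose in H_O against L_O, where 3.39% fell. With ox-LDL, 8 rose and 2 fell in L_O against L_C, where 12% of all tested entries rose and 13.8% fell. In H_O against H_C 7 rose and 2 fell, where 10.4% rose and 11.5% fell, and Slc38a2 rose in both ox-LDL comparisons. Asns, which makes asparagine, had 23.2 ± 1.78 CPM in H_O, 10.8 ± 0.352 in H_C, 29.5 ± 3.08 in L_O and 14.9 ± 1.89 in L_C (SD, n = 4) and fell with glucose in both comparisons, while Slc38a2 rose. Of 8 glucocorticoid targets, 1 rose in H_C against L_C and 3 rose in H_O against L_O, where 5.02% and 2.71% of all tested entries rose. Klf9, a transcription factor gene among them, rose with glucose and fell with ox-LDL as Sgk1 did, with 27.7 ± 2.01 CPM in H_O, 55.1 ± 2.42 in H_C, 19.5 ± 2.28 in L_O and 37.7 ± 4.33 in L_C. Fkbp5, a cochaperone gene of the glucocorticoid receptor, rose with ox-LDL, where Sgk1 fell, and averaged 13.1 ± 1.16 CPM in H_O, 7.12 ± 0.732 in H_C, 9.0 ± 1.03 in L_O and 5.73 ± 1.45 in L_C. The 6 NRF2 targets all rose in H_O against H_C and in L_O against L_C, where 10.4% and 12% of all tested entries rose. Of these, Txnrd1 alone rose in H_C against L_C (0.25 ± 0.05), where 5.02% rose. The part of these pathways in the members' levels was not tested.

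**Figure D4:**
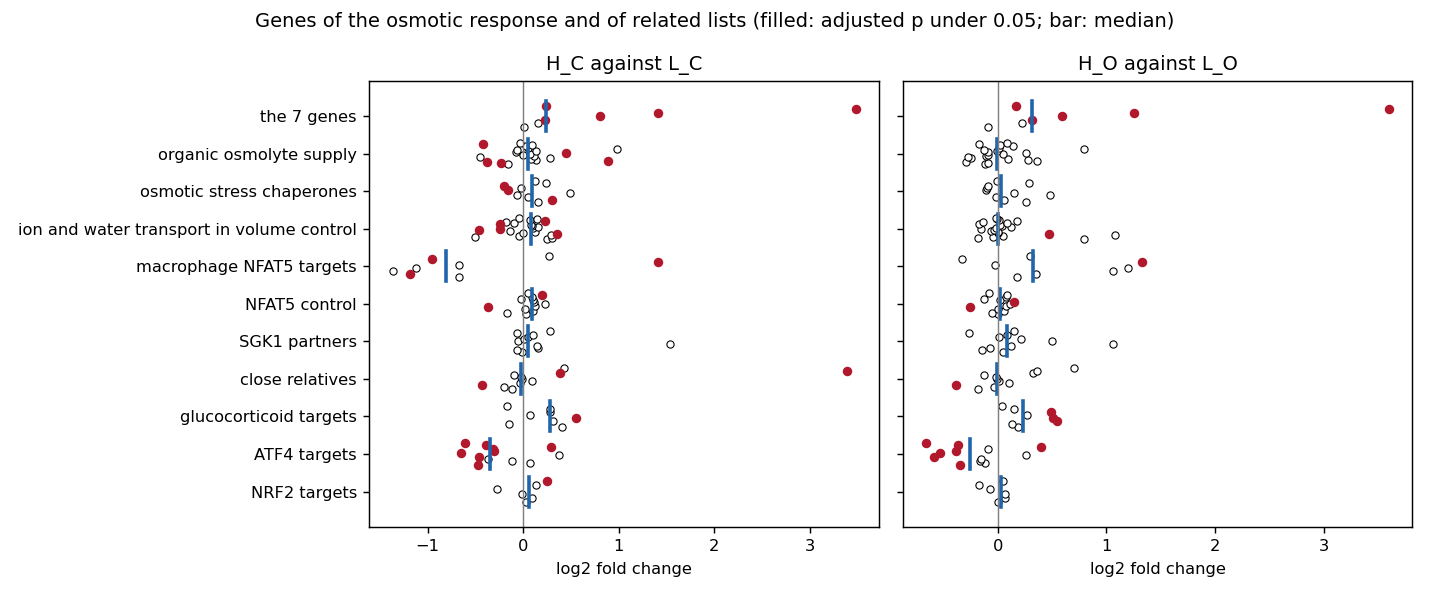
Log2 fold change (x axis) for high glucose of each tested gene in the 7 genes and in 10 related lists, in H_C against L_C (left) and H_O against L_O (right). Filled points passed an edgeR adjusted p of 0.05 and blue bars are list medians. The filled points farthest to the right in the 7 genes are Slc6a12 and Slc5a3, and that among the close relatives on the left is Slc6a13, which had at most 0.0553 CPM in L_C.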

How the data were processed

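Bulk RNA was sequenced from 16 libraries of mouse peritoneal macrophages in 4 groups of 4. The table deposited by the authors holds whole-number read counts per gene, not normalized. HISAT2, DESeq2 and the mm10 build are named per the submitters' processing notes, with no version or role, and the counting tool, annotation and use of strand are not given in the sources used here. Of its 15871 entries, 1594 are unannotated regions, with 0.776% of all counts.

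From these counts, entries were filtered with filterByExpr, scaled by TMM and tested with edgeR 4.0.16 (R 4.3.3) quasi-likelihood fits over all 16 libraries, with 12 residual degrees of freedom. P-values were two-sided and Benjamini-Hochberg adjusted over the 13527 entries tested, with a threshold of 0.05. Levels are CPM on TMM-scaled totals, and the prior count of log2 CPM was 2. Totals of 32596640 to 41712885 counts per library set the precision, and intervals are 95% intervals of the fitted fold change. The scripts were tested on simulated data. Alternatives were RLE size factors, no scaling, no filter, a filter of 1 CPM in 4 libraries, DESeq2 1.42.0, limma-voom 3.58.1, a replicate block, fits of the 8 libraries compared, and leaving out each library.

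The members and the gene lists were chosen with earlier results of these data known. Named besides the members were, per list, the 4 genes with the smallest adjusted p over the comparisons, and the 3 genes most like each member. Gene models came from GENCODE M21 and promoter windows from RefSeq (GRCm38.p6).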

Additional observations from a re-analysis of the deposited data

Results flagged for a closer look

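In 3 of the 28 groups of 4 libraries looked at (7 genes in 4 groups each), 1 library stood apart from the other three by more than Dixon's 95% limit, and chance flags about 1 in 20 groups. Nfat5 reached 130.1 CPM in L_C replicate 4, where the other L_C libraries averaged 83.7 ± 4.48 CPM (SD, n = 3), and that library also had the highest mitochondrial share, 3.71%. Whether that share has a part in the Nfat5 level was not tested. Sgk1 reached 496 CPM in H_O replicate 2, above the 419.8 to 431 CPM of the other H_O libraries. Slc6a6 reached 1846 CPM in L_O replicate 3, above the 1739.7 to 1754 CPM of the other L_O libraries.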

How the results depend on the processing

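Over the 24 alternatives, Slc6a12, Slc5a3, Slc38a2 and Sgk1 kept their direction and call in both glucose comparisons. Low counts limit Slc6a12 in low glucose, where 21 to 58 reads a library were counted. Without scaling beyond library totals, 2857 entries were higher in L_O against L_C and 2176 in H_O against H_C, and Nfat5 turned to 0.0068 and 0.048 on the log2 scale. Fits of only the 8 libraries compared called 340 higher and 574 lower in H_C against L_C and 718 higher and 901 lower in H_O against L_O. For the difference between the ox-LDL effects, DESeq2 called 76 higher and 15 lower, and limma-voom 0 and 0. The cause of these changes was not tested.

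Leaving out each library in turn left 1 to 4 members higher in H_O against H_C and 4 to 6 in H_O against L_O. In H_C against L_C it left 5 to 6. Over all entries it left 240 to 749 higher and 286 to 1014 lower in H_O against L_O. The most were left without L_C replicate 4 and the fewest without L_O replicate 1. For the difference it left 0 to 41 entries higher and 0 to 12 lower. Signs turned for values that did not pass. Over the libraries left out, the log2 value of Slc6a12 in the difference ran from -0.13 (without L_C replicate 1; -0.0029 without H_C replicate 2, -0.066 without H_O replicate 2) to 0.30, and that of Nfat5 from -0.12 (without L_C replicate 4) to 0.14. Nfat5 ran from -0.032 to 0.0035 (without H_O replicate 3) in H_O against H_C and from -0.16 to 0.10 (without L_C replicate 4) in L_O against L_C, and Akr1b3 from -0.019 (without L_C replicate 4) to 0.044 in H_C against L_C.

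Over 24 pairs of same-numbered libraries, deviations from the group means had r between -0.213 and 0.232, and 3 were over 0.1. Of 16 libraries, 2 were closest, outside their own group, to one of their own number. These values cannot show whether same-numbered libraries shared an animal or a culture, which no label tells. With the replicate number as a block, the difference had 0 higher and 0 lower, and Slc6a6 in H_O against L_O had an edgeR adjusted p of 0.054.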
